A study of Mus musculus with 11 samples.

Results

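Plasma cells were looked for among lymph node cells sorted as T cells. The library examined was 1 single-cell RNA library of CD4+CD44+ T cells, which are helper T cells that have met antigen, sorted from the draining lymph nodes of C57BL/6 mice heterozygous for a Sostdc1-EGFP reporter allele. Of the 13190 cell barcodes with at least 500 detected genes and under 10% of their transcripts from mitochondrial genes, 134 (1.02%, 95% interval 0.852 to 1.2%) were chosen by their own transcript counts: at least 5 UMIs of Jchain, at least 5 UMIs of Mzb1 and fewer than 3 UMIs over Cd3d, Cd3e and Cd3g. A UMI is 1 counted transcript molecule. B cells were 377 barcodes with at least 1 UMI each of Cd79a and Ms4a1, under 5 of Mzb1 and none of the Cd3 genes. T cells were 11058 barcodes with at least 3 Cd3 UMIs, no Cd79a or Ms4a1 UMI and under 5 Mzb1 UMIs. The bulk libraries used were 2 of follicular regulatory T (Tfr) cells from draining lymph nodes of C57BL/6 mice, 1 labelled Sostdc1 ko and 1 labelled WT. The labels used here state no age, sex or treatment.

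All single cells came from 1 library, so no value has a replicate and no test between populations was possible. Intervals are exact 95% intervals, binomial for shares and for ratios of 2 UMI sums, and cover counting error only. The 13190 barcodes held 740 to 78924 UMIs, with a median of 6025.

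Plasma cells are the antibody factories that B cells become after activation. Under the factors Blimp-1 (gene Prdm1), Irf4 and Xbp1 they shut down the B cell programme, enlarge the endoplasmic reticulum (ER) and devote much of their messenger RNA to immunoglobulin. In lymph nodes they arise as short-lived dividing plasmablasts outside follicles or leave germinal centres, where B cells divide, mutate their antibody genes and switch isotype. Jchain encodes the chain that joins antibody polymers and Mzb1 a chaperone of the ER that helps antibody assembly.

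The label of plasma cells held for 50 of the 134 barcodes only. Immunoglobulin genes and Jchain took 5.11 to 73.1% of the UMIs in those 50, with a median of 48.3%. In the other 84 they took 0.329 to 2.07%, with a median of 1.01%, against 0.155 to 3.50%, with a median of 1.24%, in B cells and a median of 0.0546% in T cells. No barcode lay between 2.07 and 5.11%. The 134 barcodes were therefore split at 4%, a value chosen in that gap after the data were seen, into antibody-rich (50, 0.379% of the filtered barcodes, 0.281 to 0.499%) and antibody-poor ones (84, 0.637%, 0.508 to 0.788%). The antibody-poor barcodes are named by that rule alone. They lacked Tnfrsf17 and nearly all Sdc1, carried the B cell markers, and were the ones with germinal centre genes, as given below.

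**Figure D1:**
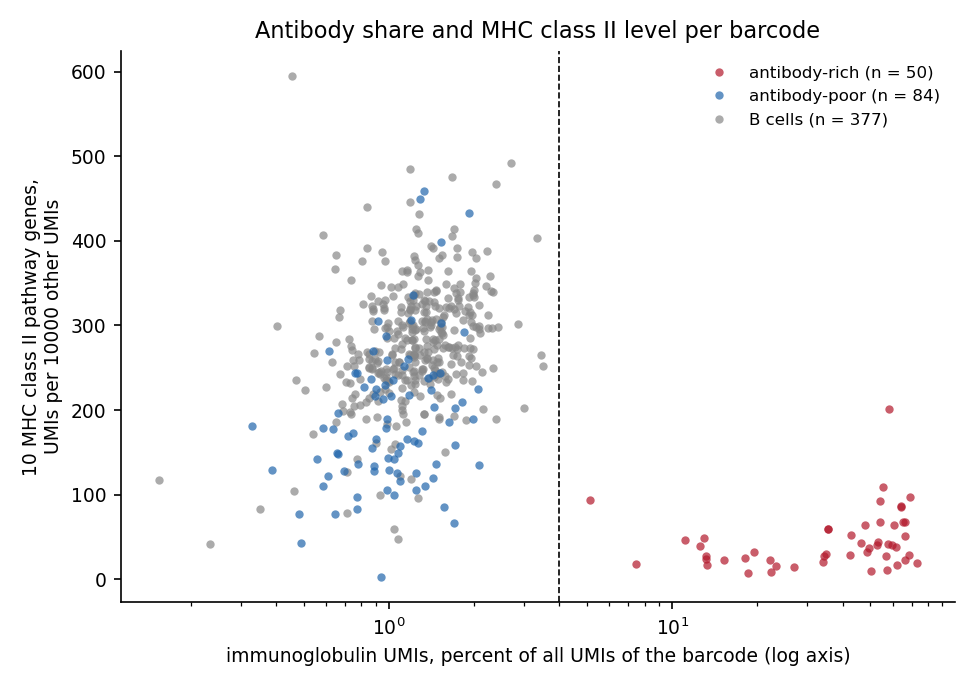
Each point is 1 barcode, with the percent of its UMIs from immunoglobulin genes and Jchain on a log axis and the summed UMIs of 10 genes of MHC class II antigen presentation per 10000 other UMIs on the vertical axis. The 50 antibody-rich barcodes lie right of the dashed line at 4%, from 5.11 to 73.1%, and the 84 antibody-poor barcodes overlap the 377 B cells along the horizontal axis.

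The genes of the rule followed the same split, and their values only describe the choice. Jchain had 7, 269 and 1188 UMIs (lowest, median and highest) in antibody-rich barcodes, 5, 11 and 53 in antibody-poor barcodes and 0, 0 and 6 in B cells. Mzb1 had 5, 71 and 423 UMIs in antibody-rich barcodes, 5, 14 and 40 in antibody-poor barcodes and 0, 1 and 4 in B cells. Near the edges of the rule, 1 of the 20 members with 5 to 7 Jchain UMIs was antibody-rich, as were 0 of the 9 barcodes just outside it with 3 or 4. Of the 13 members with 5 to 7 Mzb1 UMIs 2 were antibody-rich, and of the 3 barcodes just outside with 3 or 4 none was. The Cd3 limit cut through antibody-rich barcodes: 12 of the 26 members with 2 Cd3 UMIs were antibody-rich, 23 of the 51 with 1 and 15 of the 57 with 0. A further 47 barcodes passed on Jchain and Mzb1 but held 3 or more Cd3 UMIs, and 19 of them were over 4% immunoglobulin. Those 47 are outside every count here.

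Depth differed between the populations. Antibody-rich barcodes held 1268 to 61068 UMIs with a median of 22969, of which a median of 10201.5 were not immunoglobulin. Antibody-poor barcodes held 4818 to 67378 with a median of 14084.5, and B cells 1008 to 14883 with a median of 4321. Levels were therefore summed over each population and given as CPM, the UMIs of a gene scaled to a total of 1000000 UMIs that are not immunoglobulin or Jchain, and per 10000 of the same UMIs for single barcodes. At least 3 UMIs of T cell genes were found in 81 of the 134 members, 33 of them antibody-rich. The 9 T cell markers other than the Cd3 genes, which the rules used, together had 199 CPM in antibody-rich barcodes, 164 in antibody-poor barcodes, 251 in B cells and 5515 in T cells; none of the 9 was at 0 in either subset. No doublet caller was run. Without the members that held T cell genes, 925 genes were at least 2-fold higher and 719 lower in antibody-rich barcodes than in B cells, the ER folding list described below had a median log2 ratio of 3.39 there, and the germinal centre list one of 4.31 in antibody-poor barcodes. The germinal centre median of antibody-rich against antibody-poor barcodes became -2.57 in place of -4.13.

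Promoter sequences of ER folding and ER degradation genes are shown first, since a known cis-element of ER stress can be read in them. In the summed ER genes every antibody-rich barcode lay above every antibody-poor barcode and B cell, as given below. The unfolded protein response is known to act through ATF6 and XBP1 on the ER stress response element (ERSE) and on ERSE-II. ERSE is spelled by the capitals of the Hspa5 stretch below, with its first 5 and last 5 letters fixed and any base at the 9 between, and ERSE-II by the capitals of the Herpud1 stretch, with any base at the sixth letter. Both strands of the RefSeq promoters (GRCm38.p6, 250 bases before to 50 after each gene start) were searched, and the stretches below are written 5′ to 3′ on the gene's strand with the match in capitals. A match on the opposite strand reads CGTGG first. The first 4 hold ERSE and the last ERSE-II.
Hspa5, chr2:34771985-34772083, plus strand: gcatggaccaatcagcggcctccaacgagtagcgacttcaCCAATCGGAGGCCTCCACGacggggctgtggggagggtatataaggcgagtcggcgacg
Hsp90b1, chr10:86705598-86705694, minus strand: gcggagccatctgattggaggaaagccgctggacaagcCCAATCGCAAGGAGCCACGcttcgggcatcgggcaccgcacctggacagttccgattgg
Creld2, chr15:88819480-88819578, plus strand: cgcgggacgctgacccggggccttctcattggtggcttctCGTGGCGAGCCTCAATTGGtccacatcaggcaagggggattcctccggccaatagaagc
Derl3, chr10:75893202-75893300, plus strand: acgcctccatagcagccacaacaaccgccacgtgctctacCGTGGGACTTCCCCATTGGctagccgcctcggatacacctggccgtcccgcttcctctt
Herpud1, chr8:94386337-94386427, plus strand: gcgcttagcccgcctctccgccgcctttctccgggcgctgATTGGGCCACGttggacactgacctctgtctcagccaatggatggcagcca

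ERSE was found for 37 of 27025 genes with a promoter (0.137%). In the list of ER folding genes it was found for 7 of 20 with a promoter, namely Hspa5, Hsp90b1, Dnajc3, Creld2, Pdia6, Calr and Canx. In the list of ER degradation genes it was found for 2 of 14, Derl3 and Syvn1, and it was in no promoter of the other lists. ERSE-II was found for 12 genes (0.0444%), among them Dnajb11, Herpud1 and Krtcap2. Hsp90b1 held a second ERSE nearer its start. These matches describe letters in a window and are not measured binding sites. The element was already known from ER stress, so its shares in these chosen ER lists are a description and no test.

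Antibody-rich barcodes were set against B cells over the 3047 genes with at least 50 CPM in either population. A gene under 50 CPM in B cells entered only through the other population, which favours a higher call. The reverse holds for lower calls, and both hold in the lists as among all genes. A 2-fold difference was met by 928 genes higher (30.5%) and 614 lower (20.2%) in antibody-rich barcodes, with a median log2 ratio over all genes of 0.25. Scaled to all UMIs, immunoglobulin included, the median moved by -0.77 and the split became 483 higher and 1132 lower. The median over the same filter moved by -0.29 for all 134 members against B cells, with 556 higher and 462 lower in place of 809 (26.8%) and 322 (10.7%) of 3018. It moved by -0.78 for antibody-rich against antibody-poor barcodes, with 359 higher and 1640 lower in place of 615 (19.4%) and 759 (23.9%) of 3176. Pooled over both subsets, the 134 members had 19 of 21 measured ER folding genes other than Mzb1 and 8 of 8 germinal centre genes higher than B cells, and 9 of 10 MHC class II genes lower. Both subset contrasts were chosen after the data were seen.

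The antibody genes themselves came first in the antibody-rich barcodes. They are part of what the split used and are described without comparison. Kappa light chain (Igkc) had 0, 6592 and 17124 UMIs per antibody-rich barcode and made up 512374 CPM there; it had 6621 in antibody-poor barcodes, 7392 in B cells and 215 in T cells, which do not make it. All 50 antibody-rich barcodes could be given 1 heavy-chain isotype, defined as the constant gene with at least 75% of a barcode's heavy-chain UMIs and at least 10 UMIs. It was Ighg1 in 23 (46%, 31.8 to 60.7%), Ighg2b in 14 (28%, 16.2 to 42.5%), Ighg2c in 11 (22%, 11.5 to 36.0%) and Ighg3 in 2 (4%, 0.488 to 13.7%). All of these are IgG subclasses, which arise by class switching. Ighm, Igha and Ighe, the IgM, IgA and IgE genes, led in 0 of the 50, which allows a share of up to 6% each at 3 counts of the total, with an exact upper limit of 7.11%. Ighg2c is the gene that C57BL/6 mice carry in place of Ighg2a.

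Within a barcode the call was sharp. The leading gene held at least 93.5% of the heavy-chain UMIs in every antibody-rich barcode. Its median was 1658 UMIs in the Ighg1 barcodes, 2393.5 in the Ighg2b barcodes and 1444 in the Ighg2c barcodes. The immunoglobulin share had medians of 42.7%, 55.2% and 47.9% in those 3 groups, over ranges that overlapped almost wholly. Light chains were kappa in 46 barcodes, lambda in 3 and mixed in 1.

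**Figure D2:**
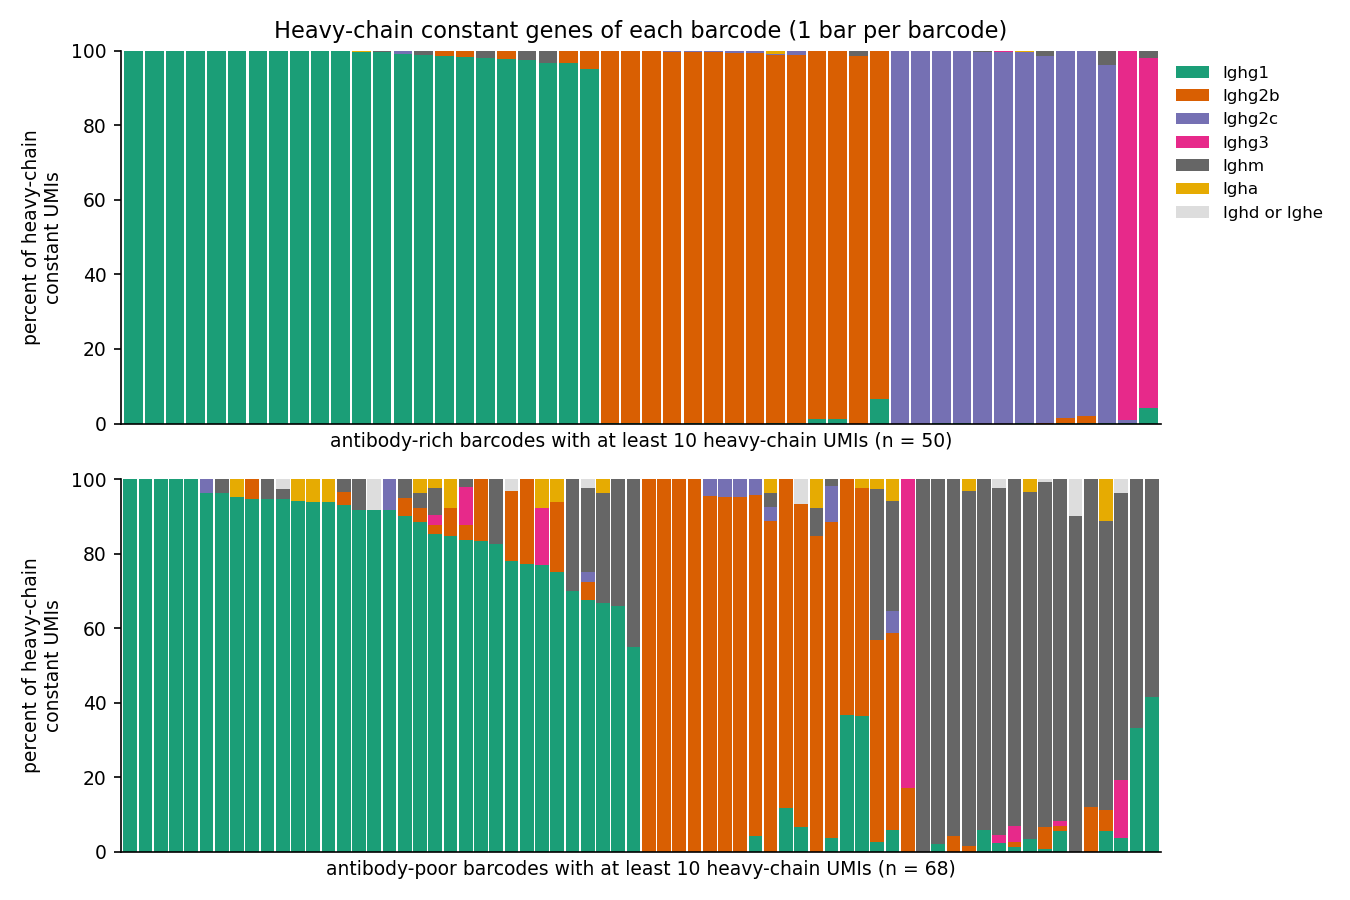
Each bar is 1 barcode and shows the percent of its heavy-chain constant-region UMIs from each isotype gene, for the 50 antibody-rich barcodes above and the 68 antibody-poor barcodes with at least 10 such UMIs below. Antibody-rich bars are each filled almost wholly by 1 IgG gene, and the antibody-poor bars include 13 led by Ighm and 12 that are mixed.

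A leading heavy-chain V segment, the germline part of the antigen-binding domain, could be named in 44 of the 50 barcodes and was 1 of 30 different segments. Ighv1-82 led in 4 barcodes and Ighv1-52, Ighv1-81 and Ighv10-1 in 3 each. A leading light-chain V segment was found in 30 barcodes, but in 20 of them it was Iglv1, and 17 of those 20 had a kappa constant region. Kappa barcodes held 0, 26 and 214 Iglv1 UMIs and a median of 16.5 Iglc1 UMIs, so that this lambda segment does not tell the chain in use. Of 28 barcodes with both segments, 4 shared both with another: 2 with Ighv1-82 and Iglv1 and 2 with Ighv10-1 and Iglv1. None of the 10 barcodes with another light segment shared both. Reads of a 3′ library cover V segments poorly, and no clone was called. In antibody-poor barcodes only 1 of 84 had a leading heavy V segment.

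The regulators of the plasma cell fate were high in the antibody-rich barcodes. Of 10 listed, 8 were measured against B cells, 6 of them at least 2-fold higher and 1 lower, with a median log2 ratio of 2.28. The shares over all genes were 30.5% higher and 20.2% lower. For antibody-poor barcodes against the same B cells only 4 regulators were measured, so some of the 8 passed the filter through their antibody-rich level alone. Xbp1, whose product drives the secretory programme, had 0, 41 and 190 UMIs per antibody-rich barcode, 0, 1 and 7 per antibody-poor barcode and 0, 0 and 6 per B cell. As a level per 10000, 49 of the 50 antibody-rich barcodes lay above the highest antibody-poor barcode and 47 above the highest B cell. Its summed level was 3556 CPM in antibody-rich barcodes, 92.8 in antibody-poor barcodes and 59.9 in B cells, a ratio to B cells of 59.4 (48.7 to 73.2). Creb3l2, a membrane-bound transcription factor of secretory cells, had 168 CPM against 1.17 in B cells (143-fold, from 2 B cell UMIs). Ell2, an elongation factor that favours the secreted form of immunoglobulin mRNA, was 31.1-fold higher (17.6 to 59.7) and Irf4 5.48-fold higher (3.86 to 7.86).

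Prdm1, the defining repressor of the B cell programme, stayed just under the level filter. It had 32 UMIs in the antibody-rich barcodes, 1 in the antibody-poor barcodes and 0 in B cells, or 48.9, 0.714 and 0 CPM. It was seen in 23 of 50 antibody-rich barcodes and in 1 of 84 antibody-poor barcodes; thinned to 3000 non-immunoglobulin UMIs per barcode, the antibody-rich share was 11.1%. Bhlha15, which encodes the secretory-cell factor Mist1, had 68.8 CPM in antibody-rich barcodes, 0 in antibody-poor barcodes and 0.587 in B cells.

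Surface genes of plasma cells also differed between the subsets. Sdc1, which encodes syndecan-1 (CD138), the standard plasma cell antigen, had 0, 2.5 and 10 UMIs per antibody-rich barcode, with 42 of 50 positive. It had 1 UMI in all 84 antibody-poor barcodes together and 1 in all 377 B cells, and was seen in 0.199% of T cells. Thinned, 57.8% of antibody-rich barcodes, 0% of antibody-poor barcodes, 0.301% of B cells and 0.0773% of T cells held a Sdc1 UMI. Tnfrsf17, the receptor BCMA for the survival factor APRIL, had 43 UMIs in 19 antibody-rich barcodes and 0 in the other two populations, at least 37.3-fold higher than in B cells against a floor of 3 UMIs over the B cells. Of 17 surface genes, 15 were measured against B cells, with 12 higher, 3 lower and a median log2 ratio of 3.46. That stands beside 30.5% higher and 20.2% lower of all genes. For antibody-poor barcodes against the same B cells 7 were measured, so here too some genes passed the filter through their antibody-rich level alone. Slamf7, an antibody target in human myeloma, was 13.1-fold higher (9.51 to 18.5), Epcam 59.9-fold higher (29.8 to 141) and Cd93, needed for plasma cell persistence in mice, 48.2-fold higher from 2 B cell UMIs. The lower ones included Cd38 and Ly6d, and Cd38, an enzyme on the surface of resting B cells, had 3.06 CPM in antibody-rich barcodes and 190 in B cells.

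Of 12 survival genes 8 were measured, with 2 higher, 3 lower and a median log2 ratio of 0.30, which became -0.47 when scaled to all UMIs. The 2 higher of 8 are a share near the 30.5% of all genes. Set against antibody-poor barcodes, 2 of 6 measured were higher and 1 lower (median 0.74, or -0.03 scaled to all UMIs), and 7 of 50 antibody-rich barcodes lay above the highest antibody-poor one in the summed list. Tnfrsf17 and Bcl2l11, which encodes the death factor Bim, were the 2 higher ones, Bcl2l11 by 9.21-fold (6.00 to 14.6). Bcl2, a survival factor of resting lymphocytes, was 22.6-fold lower (8.69 to 83.4) and Cd40 had no UMI. Mcl1, on which plasma cells depend, had 495 CPM in antibody-rich barcodes, 289 in antibody-poor barcodes and 387 in B cells, and met no 2-fold limit.

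Slpi, which encodes a secreted inhibitor of leukocyte proteases, had the largest ratio to B cells of the genes ranked. The ranking left out immunoglobulin, T cell receptor, mitochondrial, Xist, Tsix and Y-linked genes and predicted gene models. It had 0, 317 and 4021 UMIs per antibody-rich barcode, 0, 1 and 32 per antibody-poor barcode and 0, 0 and 4 per B cell. As a level per 10000, 46 of the 50 antibody-rich barcodes lay above every antibody-poor barcode and 45 above every B cell. Its sum of 44921 CPM in antibody-rich barcodes was second only to Malat1 among genes ranked with the same ones left out. Slpi had 199 CPM in antibody-poor barcodes, 38.1 in B cells and 22.6 in T cells (1178-fold over B cells, 924 to 1526). One barcode held 13.7% of the antibody-rich sum. Ly6c2, which encodes the Ly6C antigen found on many plasma cells, had 0, 17.5 and 323 UMIs per antibody-rich barcode, 0, 0 and 35 per antibody-poor barcode and 0, 0 and 34 per B cell. It reached 3599 CPM in antibody-rich barcodes, 27.1 in antibody-poor barcodes, where 1 barcode held 92.1% of it, and 59.3 in B cells. Antibody-rich barcodes differed widely in it: 10 of 50 had no Ly6c2 UMI.

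**Figure D3:**
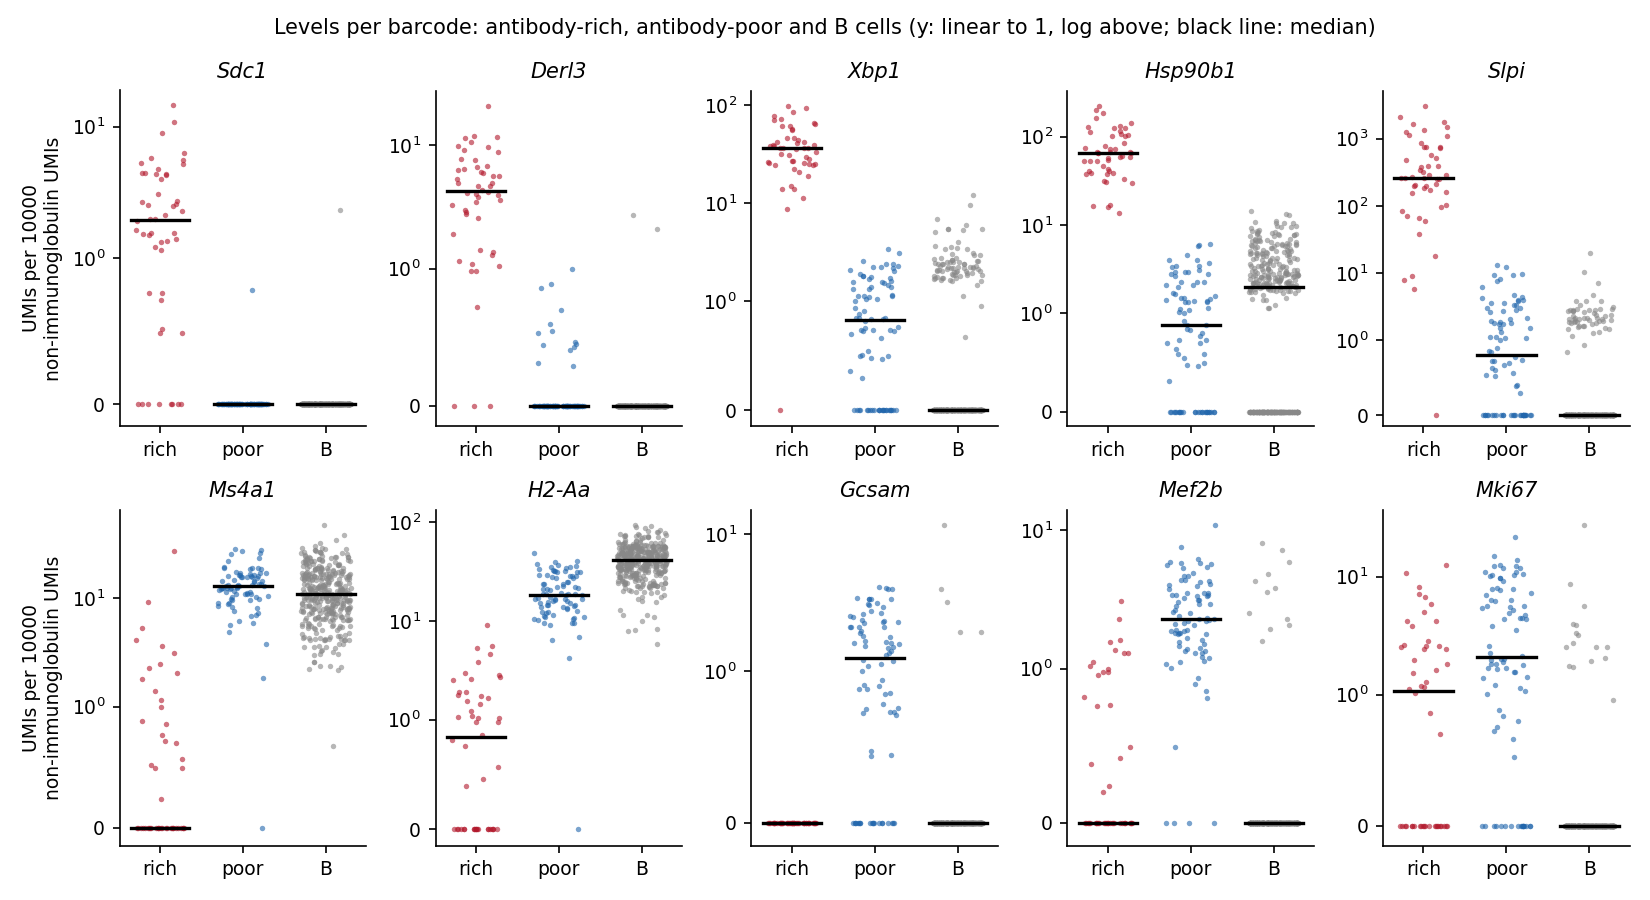
Each point is 1 barcode, with UMIs per 10000 non-immunoglobulin UMIs on an axis that is linear near 0 and log above, and black lines are medians over 50 antibody-rich barcodes, 84 antibody-poor barcodes and 377 B cells. Sdc1, Derl3, Xbp1, Hsp90b1 and Slpi are high in antibody-rich barcodes, Gcsam and Mef2b in antibody-poor barcodes, and Ms4a1 and H2-Aa are low in antibody-rich barcodes.

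The genes that build and police secreted proteins were higher in the antibody-rich barcodes almost without exception. Of 25 genes of ER folding, 24 were measured and all 24 were at least 2-fold higher than in B cells, with a median log2 ratio of 3.45. Without Mzb1, which the rule used, 23 of 23 were higher, with a median of 3.41. Of 16 genes of ER degradation 15 were measured and 15 higher (median 2.97). Of 27 genes of entry into the ER, signal cleavage and N-glycosylation 27 were measured and 26 higher (3.04). Of 24 genes of transport between ER and Golgi 22 were measured and 21 higher (2.55). None of these genes was lower, against 30.5% of all genes higher and 20.2% lower.

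The separation held barcode by barcode. The 24 ER folding genes other than Mzb1 summed to 114, 283 and 675 per 10000 in antibody-rich barcodes, 10.1, 23.1 and 41.7 in antibody-poor barcodes and 0, 21.9 and 106 in B cells. All 50 antibody-rich barcodes lay above every antibody-poor barcode and every B cell in that sum, and likewise in the sums of the ER degradation, ER entry and ER to Golgi lists. The antibody-poor barcodes and the B cells overlapped.

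Hsp90b1, the ER chaperone Grp94, had 4, 63.5 and 938 UMIs per antibody-rich barcode, 0, 1 and 14 per antibody-poor barcode and 0, 1 and 14 per B cell. Its summed level was 7926 CPM in antibody-rich barcodes, 142 in antibody-poor barcodes and 244 in B cells (32.5-fold over B cells, 29.4 to 36.1). Creld2, an ER protein induced by unfolded proteins, had 0, 8.5 and 191 UMIs per antibody-rich barcode, and 1295 CPM, against 18.6 in antibody-poor barcodes and 10.6 in B cells (123-fold over B cells, 77.1 to 208). Hspa5, the chaperone BiP that binds unassembled heavy chains, was 10.6-fold higher than in B cells (9.63 to 11.7), but 1 antibody-rich barcode with 823 UMIs held 38.7% of its sum. Among the genes with a printed promoter, the ratio to B cells ran from 7.76 for Herpud1, a membrane partner of the ER degradation complex, to 384 for Derl3. The ERSE genes without a printed promoter had ratios of 2.40 (Canx), 2.79 (Syvn1), 5.05 (Calr), 10.4 (Pdia6) and 13.2 (Dnajc3).

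Fkbp11, a prolyl isomerase of secretory cells, had 503 UMIs in antibody-rich barcodes, 1 in antibody-poor barcodes and 11 in B cells (119-fold over B cells, 66.0 to 240). Derl3, a channel component for the export of misfolded proteins and a marker of secretory cells, had 0, 4 and 53 UMIs per antibody-rich barcode, 0, 0 and 4 per antibody-poor barcode and 0, 0 and 1 per B cell. Its level was 451 CPM in antibody-rich barcodes, 13.6 in antibody-poor barcodes and 1.17 in B cells, where it rests on 2 UMIs. Edem1, a lectin that marks misfolded glycoproteins, was 45.3-fold higher than in B cells (34.1 to 61.3). Sec11c, a catalytic subunit of signal peptidase, had 1, 41.5 and 129 UMIs per antibody-rich barcode, 0, 3 and 14 per antibody-poor barcode and 0, 0 and 4 per B cell, and its level per 10000 was above every antibody-poor barcode in 50 of 50. Lman1, the cargo receptor ERGIC-53, was 26.9-fold higher (20.7 to 35.5).

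Of 16 genes of amino acid supply and the integrated stress response, 5 were measured against B cells, with 3 higher, 0 lower and a median log2 ratio of 1.26. Among all genes 30.5% were higher and 20.2% lower. Asns, asparagine synthetase, had 34 UMIs in antibody-rich barcodes and 2 in B cells, Slc3a2, the heavy chain of amino acid exchangers, was 3.86-fold higher (3.1 to 4.82) and Atf4, the factor of the integrated stress response, 2.39-fold higher (1.91 to 2.99). Of 12 cytokines and secreted factors only Tgfb1 was measured, at 19.9 CPM in antibody-rich barcodes, 107 in antibody-poor barcodes and 124 in B cells. Il10 had 2 UMIs in each subset and 0 in B cells.

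Other genes by the fixed naming rule, which takes the largest ratios, were Selenom, a selenoprotein of the ER, with 214 CPM in antibody-rich barcodes, 0 in antibody-poor barcodes and 0.587 in B cells, and Oosp1, known from oocytes, with 180, 0 and 0.587. Pon3, a lactonase, had 309 CPM in antibody-rich barcodes, 4.999 in antibody-poor barcodes and 2.35 in B cells. Fam46c, a poly(A) polymerase gene mutated in human myeloma, had 587, 5.71 and 5.87 in the same order. Against antibody-poor barcodes the largest ratios also included Ckap4, an ER membrane protein, at 593 CPM in antibody-rich and 1.43 in antibody-poor barcodes, and Epcam, a cell adhesion molecule, at 281 and 0.714.

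The B cell programme was low in the antibody-rich barcodes. None of 15 measured transcription factors of B cell identity was at least 2-fold higher than in B cells and 13 were lower, with a median log2 ratio of -4.57. Over all genes 30.5% were higher and 20.2% lower. Pax5, the guardian of B cell identity, had 0 UMIs in antibody-rich barcodes, 174 CPM in antibody-poor barcodes and 218 in B cells, at least 47.5-fold lower in antibody-rich barcodes than in B cells. Irf8 had 6.12, 501 and 473 CPM and was 77.3-fold lower in antibody-rich barcodes than in B cells (30.1 to 285). Of 19 measured B cell surface and signalling genes 16 were lower and 0 higher (median -3.81). Without Cd79a and Ms4a1, which the B cell rule used, 14 of 17 were lower and 0 higher (median -4.59). Fcmr, the IgM receptor, had 3.06 CPM in antibody-rich barcodes, 149 in antibody-poor barcodes and 575 in B cells. Ms4a1 (CD20) had 0, 0 and 7 UMIs per antibody-rich barcode, 0, 18 and 97 per antibody-poor barcode and 1, 5 and 34 per B cell, where the rule required it.

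Of 10 genes of antigen presentation by MHC class II, 9 were lower and 0 higher in antibody-rich barcodes, with a median log2 ratio of -3.85. Among all genes 20.2% were lower and 30.5% higher. H2-Aa, the alpha chain of I-A, had 0, 1 and 22 UMIs per antibody-rich barcode, 0, 25 and 116 per antibody-poor barcode and 1, 18 and 42 per B cell. Every antibody-rich barcode lay below the B cell median of the level per 10000. Its sum was 164 CPM in antibody-rich barcodes, 1899 in antibody-poor barcodes and 4070 in B cells, 24.9-fold lower in antibody-rich barcodes than in B cells (20.6 to 30.4). Cd74, the invariant chain, was 4.74-fold lower (4.52 to 4.97), with a median of 27 UMIs per antibody-rich barcode.

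Homing genes were mostly lower than in B cells in antibody-rich barcodes: of 13 measured 8 were lower and 3 higher, with a median log2 ratio of -2.34. Over all genes 20.2% were lower and 30.5% higher, so the 3 higher of 13 are no larger a share than among all genes. Ccr6, Cxcr5 and Ccr7, receptors that position lymphocytes in and around follicles, had 1.53, 4.59 and 4.59 CPM in antibody-rich barcodes, 0, 43.6 and 2.86 in antibody-poor barcodes, and 157, 82.7 and 78.1 in B cells. Klf2, a factor for recirculation, had 48.9 CPM in antibody-rich barcodes, 15.0 in antibody-poor barcodes and 566 in B cells. Cxcr4, a receptor for the bone marrow chemokine, was higher in both subsets, 3.83-fold in antibody-rich barcodes (2.39 to 6.20) and 3.35-fold in antibody-poor barcodes (2.21 to 5.19). Cxcr3, which follows inflammatory chemokines, had a summed level 5.21-fold higher in antibody-rich barcodes (2.93 to 9.57). It was seen in 14 of 50 of them, and 1 barcode held 31.6% of the sum. Thinned to equal depth, 0% of 45 antibody-rich barcodes (upper limit 7.87%) and 3.01% of B cells held a Cxcr3 UMI. The higher sum was thus not seen as a higher share of barcodes at equal depth. Itga4, an adhesion integrin, had 188 CPM in antibody-rich barcodes, 15.0 in antibody-poor barcodes and 111 in B cells.

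Antibody-rich barcodes differed among themselves in cell cycle transcripts. At least 3 UMIs over Mki67, Top2a, Birc5, Cdk1, Ccnb2 and Ube2c were held by 20 of 50 antibody-rich barcodes (40%, 26.4 to 54.8%), 72 of 84 antibody-poor barcodes (85.7%, 76.4 to 92.4%), 8 of 377 B cells (2.12%) and 11.3% of T cells. Thinned to 3000 non-immunoglobulin UMIs, which left out 5 antibody-rich barcodes, 0 antibody-poor barcodes and 45 B cells, the shares were 22.2%, 51.2%, 1.51% and 8.17%. Of 16 cell cycle genes measured 14 were at least 2-fold higher than in B cells in antibody-rich barcodes, against 30.5% of all genes. Their median log2 ratio was 3.31, and -0.22 without the cycling barcodes of both populations. These cells are read from transcripts alone, and free RNA of dividing cells was not removed.

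The 20 cycling antibody-rich barcodes held a lower median share of antibody RNA than the 30 others. Immunoglobulin and Jchain took 7.44 to 59.5% of UMIs with a median of 34.2% in the cycling ones, against 5.11 to 73.1% with a median of 57.2% in the others, and the ranges overlapped. Their median of non-immunoglobulin UMIs was 19868 in cycling barcodes and 7763 in the others, and 1 of 20 cycling barcodes and 7 of 30 others held under 5000 UMIs. T cell markers moved with the same grouping: the list had a median of 1.51 per 10000 in cycling barcodes and 4.17 in the others, and its 3 measured genes were all lower in cycling barcodes (median log2 ratio -1.29). The part of depth and of T cell RNA in the differences that follow was not tested. Over 2851 genes, 342 were at least 2-fold higher (12%) and 228 lower (8%) in cycling barcodes. All 18 measured cell cycle genes were higher, in a list that includes the 6 genes the grouping used.

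Ly6c2 had 909 CPM in cycling antibody-rich barcodes and 8266 in the others, 9.10-fold lower (8.14 to 10.2). Slpi had 24223 in cycling barcodes and 80829 in the others, 3.34-fold lower (3.26 to 3.42), although the medians of single barcodes were closer, 207 and 335 per 10000. Jchain was 2.51-fold lower (2.43 to 2.59) and Ssr4, a subunit of the translocon-associated complex, 2.89-fold lower (2.65 to 3.15). Of 24 measured ER folding genes 0 were higher and 1 lower in cycling barcodes, with a median log2 ratio of 0.03. Xbp1 had 3037 CPM in cycling barcodes and 4457 in the others, and Mzb1 7833 and 7673. Cycling barcodes were 7 of the 23 with Ighg1, 6 of the 14 with Ighg2b and 6 of the 11 with Ighg2c.

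**Figure D4:**
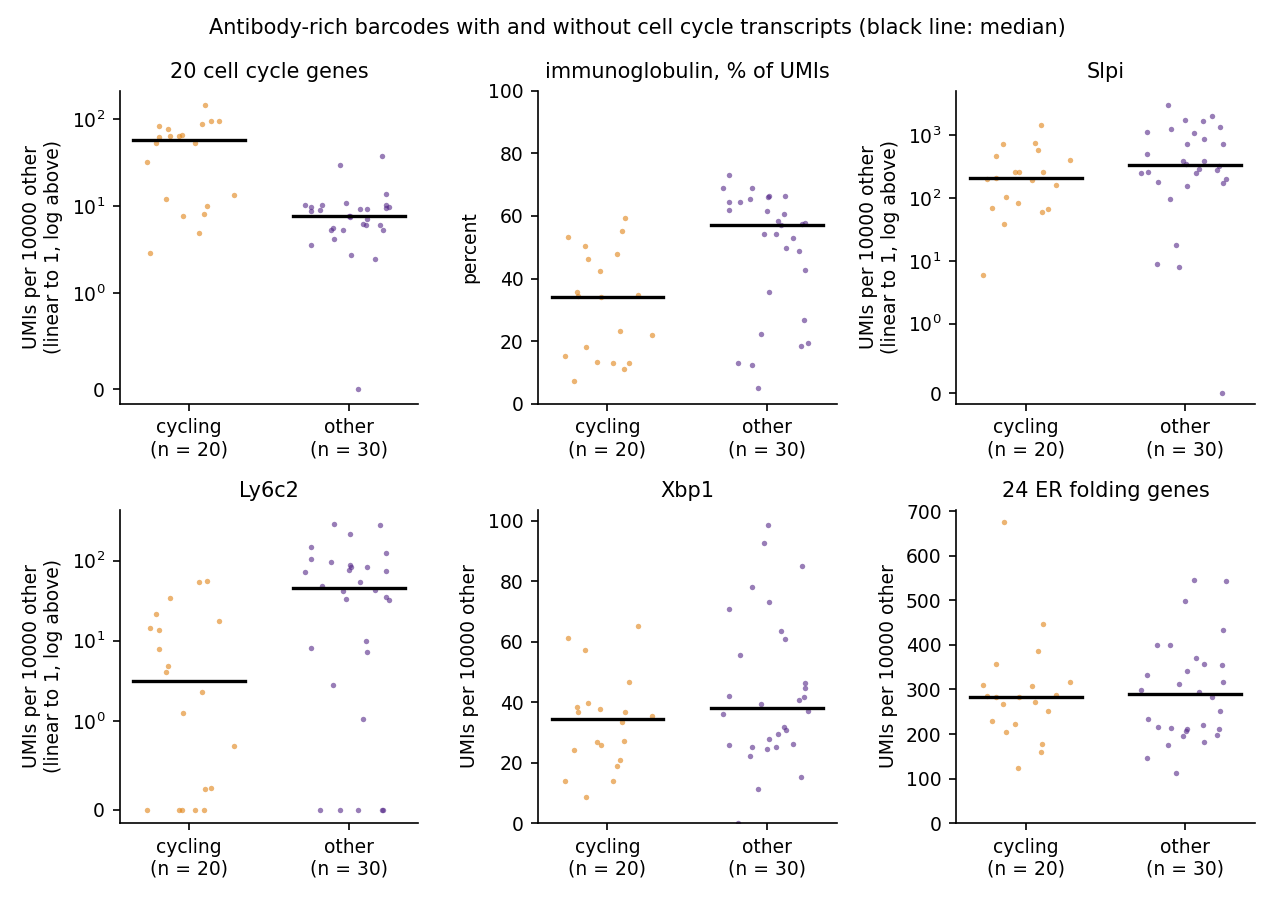
Each point is 1 antibody-rich barcode, 20 cycling and 30 other, with black lines at the medians; the panels give 20 cell cycle genes, the immunoglobulin percent of UMIs, Slpi, Ly6c2, Xbp1 and 24 ER folding genes without Mzb1, all but the percent in UMIs per 10000 non-immunoglobulin UMIs. Cycling barcodes have a lower median immunoglobulin share (34.2 against 57.2%) and lower Ly6c2, and the ER folding panel shows overlapping groups. The grouping used raw UMIs, and the part of depth in these differences was not tested.

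The 84 antibody-poor barcodes were set against the same B cells over 2991 genes, of which 775 were at least 2-fold higher (25.9%) and 321 lower (10.7%), with a median log2 ratio of 0.44. All 10 listed germinal centre genes were measured and all 10 were higher, with a median log2 ratio of 4.28. For antibody-rich barcodes against B cells 0 of the 10 were measured. All 10 thus passed the filter through their antibody-poor level alone, which favours a higher call. Summed, they came to 4.10, 14.9 and 33.6 per 10000 in antibody-poor barcodes, 0, 0.914 and 10.8 in antibody-rich barcodes and 0, 0 and 29.4 in B cells. Of the 50 antibody-rich barcodes 48 lay below the lowest antibody-poor barcode, and all 84 antibody-poor barcodes lay above the B cell median.

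Gcsam, a signalling adaptor of germinal centre B cells, had 0, 2 and 10 UMIs per antibody-poor barcode, with 64 of 84 positive, 0 UMIs in all antibody-rich barcodes and 0, 0 and 3 per B cell, with 5 of 377 positive. Thinned to equal depth, 29.8% of antibody-poor barcodes, 0.301% of B cells and 0.0773% of T cells held it. In summed level Gcsam was 30.2-fold higher than in B cells (15.6 to 66.8), Rgs13, a brake on chemokine signalling, 28.3-fold (14.1 to 66.5) and Neil1, a DNA glycosylase, 24.1-fold (13.6 to 47.4). Mef2b, a transcription factor of germinal centre B cells, had 0, 3 and 29 UMIs per antibody-poor barcode, with 80 of 84 positive, 0, 0 and 4 per antibody-rich barcode, with 21 of 50 positive, and 0, 0 and 6 per B cell, with 12 of 377 positive. Its summed level was 294 CPM in antibody-poor barcodes, 45.9 in antibody-rich barcodes and 14.1 in B cells (20.8-fold in antibody-poor barcodes over B cells, 13.8 to 32.9). S1pr2, which confines cells to the germinal centre, was 20.3-fold higher (11.4 to 39.9). Bcl6, the master repressor of the germinal centre, differed least of the named genes, 3.1-fold (2.05 to 4.79), and had no UMI in antibody-rich barcodes.

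The same barcodes carried the B cell genes. Of 16 measured identity factors 1 was higher and 3 lower than in B cells (median -0.26), and of 20 surface genes 1 was higher and 7 lower (median -0.56). As UMIs per cell those medians became 1.63 and 1.33. Over all genes 25.9% were higher and 10.7% lower, so both lists held a larger share of lower genes than that. Pou2af1, a coactivator needed for germinal centres, was 3.16-fold higher (2.67 to 3.74), while Klf2 was 37.7-fold lower (24.5 to 61.2). Surface genes of resting B cells were low: Cd38 had 7.14 CPM in antibody-poor barcodes and 190 in B cells, Ly6d 98.6 and 2087 and Fcmr 149 and 575. Cd24a was 4.26-fold higher (3.60 to 5.05). The MHC class II list had 5 of 10 lower and 0 higher with a median of -1.04, which reversed to 0.85 when compared as UMIs per cell, since these barcodes are deeper than B cells.

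All 20 cell cycle genes were higher in antibody-poor barcodes than in B cells (median log2 ratio 3.67). Ccnb2, a mitotic cyclin, was 34.8-fold higher (18.0 to 76.9), and Hmmr and Plk1, of the mitotic spindle, had 123 and 96.4 CPM in antibody-poor barcodes against 1.17 each in B cells. Of the 6 measured survival genes only 1, Bcl2, was at least 2-fold lower, at 2.14 CPM in antibody-poor barcodes and 138 in B cells. Serpinb1a, a protease inhibitor among the genes with the lowest ratios, had 3.57 CPM in antibody-poor barcodes and 346 in B cells. Malat1, a nuclear RNA, had 6013 CPM in antibody-poor barcodes, 48162 in antibody-rich barcodes and 28822 in B cells.

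Genes of plasma cell fate went both ways in antibody-poor barcodes. Of 4 measured regulators 2 were higher and 0 lower than in B cells (median 0.85). Of 7 surface genes 2 were higher and 4 lower (-1.13), and of 6 survival genes 0 were higher and 1 lower (-0.44). The medians of the secretory lists lay between 0.10 and 0.55. Without Mzb1, 1 of 17 measured ER folding genes was higher and 1 lower (median 0.10). Of 9 ER degradation genes 3 were higher (0.55), of 22 ER entry genes 1 (0.38) and of 12 ER to Golgi genes 2 (0.32). None of these 3 lists had a lower gene. The counts of this paragraph stand beside 25.9% of all genes higher and 10.7% lower. Set directly against antibody-poor barcodes, antibody-rich barcodes had 22 of 23 ER folding genes without Mzb1 higher (median 3.50), 0 of 10 germinal centre genes higher and 10 lower (-4.13, with 6 of the 10 at 0 UMIs in antibody-rich barcodes and so at their floor), and 12 of 20 cell cycle genes lower (-1.17), beside 19.4% higher and 23.9% lower of all genes.

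Isotypes of the antibody-poor barcodes were mixed between IgM and IgG. Ighm led in 13 of 84 (15.5%, 8.51 to 25.01%) and an IgG gene in 43 (51.2%, 40.04 to 62.3%), of which 29 were Ighg1, 13 Ighg2b and 1 Ighg3. Ighg2c led in 0 of 84, which allows a share of up to 3.57% at 3 counts of the total, with an exact upper limit of 4.30%, and in 11 of 50 antibody-rich barcodes. A further 12 were mixed and 16 had under 10 heavy-chain UMIs. Among B cells 57 of 377 were led by Ighm, 4 by an IgG gene (1.06%, 0.290 to 2.69%), and 213 were mixed. Ighd counted as a heavy-chain gene of its own, so a B cell with both Ighm and Ighd could be called mixed. The medians per B cell were 8 Ighm and 4 Ighd UMIs, and the make-up of the mixed calls was not tested. Ighd, the IgD gene of naive B cells, had 4.29 CPM in antibody-poor barcodes, 0 in antibody-rich barcodes and 908 in B cells. These calls rest on few UMIs, with medians of 4 Ighg1 and 0 Ighm UMIs per antibody-poor barcode, and free IgG RNA from antibody-rich cells was not removed. T cells, which make no antibody, held 34.4 CPM of Ighg1, against 571 in antibody-poor barcodes. They held 334 CPM of Ighm, against 536 in antibody-poor barcodes. The ratio of Ighm to Igkc was 1.55 in T cells, 0.249 in B cells, 0.081 in antibody-poor barcodes and 0.0012 in antibody-rich barcodes. The part of free RNA in the Ighm-led and mixed calls was not tested. The source of the Ighm RNA in T cells was not tested, and it was not removed.

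**Figure D5:**
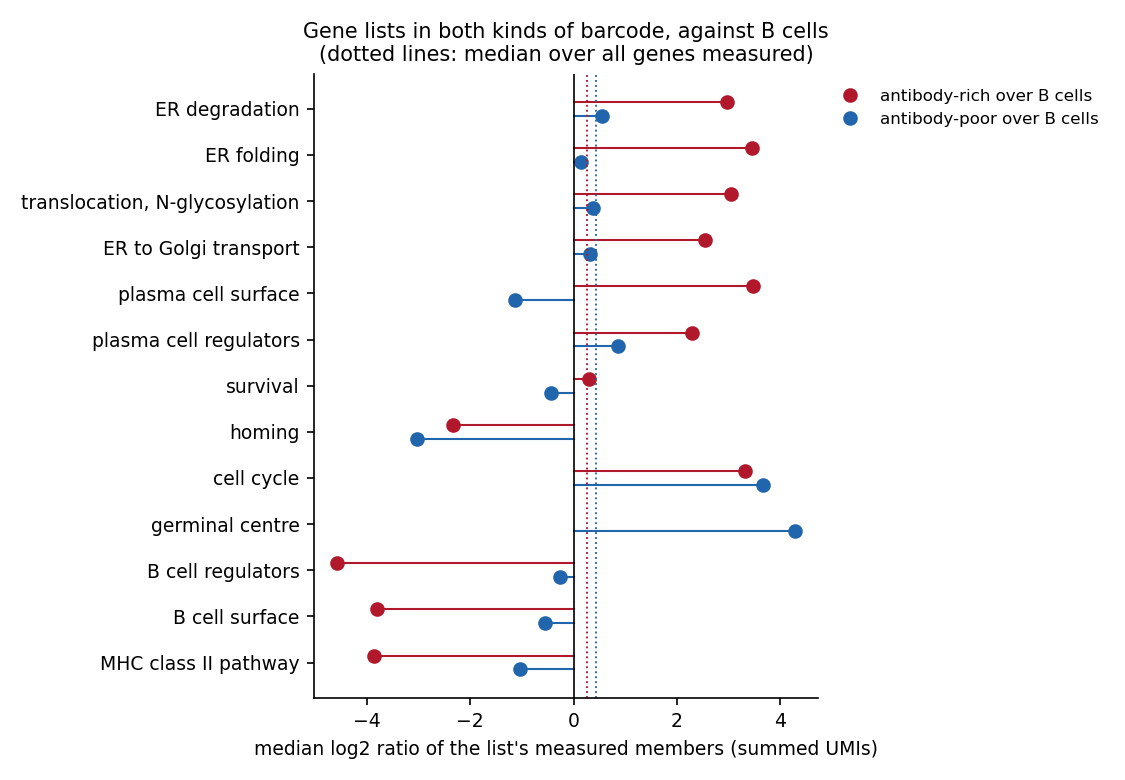
Points give the median log2 ratio to B cells of 13 gene lists in antibody-rich and antibody-poor barcodes, with dotted lines at the median over all genes measured (0.25 and 0.44). The germinal centre list has no antibody-rich point, since 0 of its genes were measured there. ER folding includes Mzb1, which the rule used, and its antibody-poor median is 0.10 without it. The 4 secretory lists lie between 2.55 and 3.45 in antibody-rich barcodes and between 0.15 and 0.55 in antibody-poor barcodes; the antibody-poor medians for plasma cell surface genes and MHC class II reverse, to 0.76 and 0.85, when compared as UMIs per cell, and those for survival, B cell identity and B cell surface genes become 1.44, 1.63 and 1.33; the antibody-rich survival median becomes -0.47 scaled to all UMIs.

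Markers of other lineages were also summed. Of 14 myeloid and plasmacytoid dendritic cell genes, 3 were measured in antibody-rich barcodes against B cells, of which Bst2, also an interferon-induced gene and known on plasma cells, was 5.49-fold higher and Cst3 3.20-fold higher. Siglech, Ccr9 and Itgam, which define those cells, had 0 UMIs in antibody-rich barcodes. The list's summed level was 0 to 44.2 per 10000 in antibody-rich barcodes with a median of 21.3, 1.08 to 190 with a median of 4.48 in antibody-poor barcodes and 0 to 110 with a median of 5.01 in B cells, and 47 of 50 antibody-rich barcodes lay above the antibody-poor median. Bst2 and Cst3 alone had medians of 8.79 and 5.34 per 10000 in antibody-rich barcodes, 0.501 and 1.86 in antibody-poor barcodes and 0 and 1.42 in B cells. The part of this RNA in the other results was not tested. Of 8 NK and CD8 markers none was measured, and the sums were 7.64 CPM in antibody-rich barcodes, 7.86 in antibody-poor barcodes and 17.6 in B cells.

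A few antibody-poor barcodes carried another lineage beside the B cell genes. Lyz2, the myeloid lysozyme, had at least 10 UMIs in 5 of 84, against 0 of 50 antibody-rich barcodes and 1 of 377 B cells. One antibody-poor barcode had 221 Lyz2 UMIs with 17 of Ms4a1 and 13 of Cd79a, and another had 22 Siglech, 57 Bst2, 35 Ly6c2 and 10 Ccr9 UMIs with 13 of Ms4a1. The related Lyz1, at 130 CPM in antibody-poor barcodes and 2.35 in B cells, took 82.4% of its sum from 1 barcode and shares sequence with Lyz2. Red cell Hbb-bt had at least 5 UMIs in 3 antibody-poor barcodes. The part of these other-lineage barcodes in the other gene lists was not tested.

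Genes of the plasma cell rule had few counts in the 2 bulk Tfr libraries. Sostdc1 itself went against the labels, with 458 counts in the KO-labelled library and 4 in the WT-labelled one, so these names are used as labels only and no direction is read. Of 27777625 counts in the KO-labelled and 18076300 in the WT-labelled library, Jchain had 25 and 27, Mzb1 17 and 15, Tnfrsf17 4 and 2, Sdc1 32 and 47, Derl3 169 and 61 and Slpi 28 and 25. Prdm1 and Xbp1, which regulatory T cells also express, had 8614 and 6627 counts in the KO-labelled library (310 and 239 CPM of all counts) and 4339 and 2702 in the WT-labelled one (240.04 and 149 CPM). Ighg1 had 210 counts in the KO-labelled and 415 in the WT-labelled library, Igkc 969 and 546, and Ighm 13150 and 19717 (473 and 1091 CPM of all counts). In these bulk libraries fewer cells of a type and less RNA per cell cannot be told apart.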

How the data were processed

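Per the labels, CD4+CD44+ T cells were sorted from draining lymph nodes and made into 1 Chromium 3′ library. The authors deposited a matrix of raw UMI counts for 15002 barcodes and 31053 genes; its header names Cell Ranger 3.1.0, while the submitters' processing notes name Cell Ranger 2.1.0, and the notes list the builds mm9 and mm10 with no role. The table of the 2 bulk Tfr libraries holds raw counts per gene, which were used, and beside them values the authors deposited that were not used, namely CPM, a fold ratio, its log2 value and p-values; no source used here names the counter. Bulk CPM given here were computed from the counts.

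Filters removed 835 barcodes for under 500 genes; 977 reached 10% mitochondrial UMIs. UMIs were summed per population and scaled to 1000000 UMIs (CPM) outside Igh, Igk, Igl and Jchain genes. Genes with at least 50 CPM in either population were called at a ratio of 2, and a sum of 0 was set to 3 UMIs over the population, which makes its ratio a bound. For shares across depths, barcodes were thinned to 3000 non-immunoglobulin UMIs. Gene lists (20), counts per list and motifs are descriptions; the members and lists were chosen with earlier results of these data known, and the split at 4%, the comparisons of the subsets and that of cycling with other barcodes were chosen after the data were seen. Named genes are the markers, the 12 with the highest and the 12 with the lowest ratio per comparison, up to 4 per list and the most abundant, of which a selection is printed, and members of other lineages were named after their values were seen; some genes are not reported here. Promoters came from RefSeq. Alternatives covered the filters, the scaling, the weight of barcodes, T cell genes, cycling barcodes and the split. The scripts were tested on simulated data. Python 3.11.15, numpy 2.4.6, scipy 1.17.1 and pandas 2.3.3 were used. Of 11 samples 3 were used.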

Additional observations from a re-analysis of the deposited data

How the results depend on the processing

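No paired analysis was possible because all members came from 1 library and each bulk group has 1 library. A limit of no Cd3 UMI left 57 of the 134 members, 15 of them antibody-rich. Genes at least 2-fold different, 1131 for all members against B cells, 1542 for antibody-rich and 1096 for antibody-poor barcodes against B cells and 1374 for antibody-rich against antibody-poor barcodes, became 2521, 3425, 2480 and 3057 with a filter of 10 CPM and 3761, 4181, 3667 and 3814 with none; compared as UMIs per cell the first 3 became 2637, 2368 and 2684. Lists with a median beyond 2-fold in antibody-poor barcodes were 5, 14 as UMIs per cell and 3 with equal weight per cell. The share of members led by an IgG gene, 69.4%, became 57.5% at 90% purity and 58.5% without members with T cell genes. The cycling share of all members, 68.7%, became 45.0% thinned and 54.5% at 5 UMIs, and the median immunoglobulin share, 1.44%, became 5.11% with at least 10 UMIs of Jchain and Mzb1.

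Log2 ratios to B cells reversed as UMIs per cell for all members in the MHC class II list (0.41), H2-Aa (0.17) and Cd79a (0.43), and for antibody-poor barcodes in plasma surface genes (0.76), MHC class II (0.85), H2-Aa (0.78) and Prdm1 (0.58). In antibody-rich barcodes myeloid genes became -0.62 at 10 CPM and -0.73 with no filter, and cell cycle genes -0.22 without cycling cells. In antibody-poor barcodes Prdm1, from 1 UMI, became 1.74 without members with T cell genes and 3.90 without cycling cells, and plasma surface genes 0.15 with the split at 10%. The larger depth of antibody-poor barcodes sets the per-cell values; the cause of the others was not tested. Of 646 values of single genes under an alternative 437 stayed within the counting interval of the main value, and of 598 list medians 269 moved by under 0.1; 6 and 7 with a main value beyond 2-fold changed sign, and these are given here. Medians within 2-fold that changed sign were not counted; among them are survival genes in antibody-rich barcodes (-0.47 scaled to all UMIs) and, as UMIs per cell in antibody-poor barcodes, survival (1.44), B cell identity (1.63) and B cell surface genes (1.33).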
